A study of Homo sapiens with 20 samples.

Results

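The aldo-keto reductases of differentiated Caco-2 cells were examined across 9 treatment groups. They were chosen by gene symbol from the platform annotation, as AKR1A1, AKR1B1, AKR1B10, AKR1C1, AKR1C2, AKR1C3, AKR1C4, AKR1D1, AKR7A2 and AKR7A3. Of 54675 probe sets on the array, 17 named at least 1 of these 10 genes, and they covered 8 of the genes, out of 21357 gene symbols that the annotation names. AKR1C1 was named by 6 probe sets, AKR1C2 by 4, AKR7A2 and AKR7A3 by 2 each, and AKR1B10, AKR1C3, AKR1C4 and AKR1D1 by 1 each. A single probe set, 1555854_at, named both AKR1C2 and AKR1C1. AKR1A1 and AKR1B1 were not analysed here, since no probe set carried their symbols.

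Aldo-keto reductases are cytosolic enzymes that use NADPH to reduce aldehydes and ketones to alcohols. In the intestinal epithelium they clear reactive aldehydes from food and from lipid peroxidation, reduce retinal, and convert steroid hormones and bile acid intermediates. AKR1B10 and the AKR1C genes are known in human cells as targets of NRF2, the transcription factor encoded by NFE2L2 that answers electrophilic and oxidative stress.

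Caco-2, the line all samples came from, was established from a human colon carcinoma and resembles absorptive enterocytes once it has differentiated, here over 5 days on inserts. In the probiotic array set the cells met live bacteria for 8 h, 20 to 100 to each host cell (L. acidophilus NCFM, B. lactis 420 or L. salivarius Ls-33), or 10% of a strain's spent, bacteria-free broth for 24 h, called supernatant here, and 8 h medium was the control (2 arrays per group, 5 µg RNA). In a separate array set, 5% supernatant of E. coli O157:H7 acted for 24 h and was set against 24 h medium (3 arrays per group, 1 µg RNA). Each probiotic supernatant is therefore compared with a medium of another time, no group received bacterial broth alone, and because the series describes duplicate analysis the p-values of the probiotic set measure only the spread between arrays.

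Values are log2 signals of a probe set. Median log2 signal lay between 2.66 and 2.72 on the 20 arrays, and replicate arrays had r = 0.994 to 0.997 over probe sets (which are no independent replicates). Of 11 enterocyte markers, 10 had a named probe set and 9 of these lay above a floor of 2.67 on every array, while FABP2 did so on 16 arrays. This floor is the filter cut of the probiotic set, explained below, and not a detection call. Of 10 markers of fibroblasts, endothelium and leukocytes, 9 had a named probe set, and DCN, VWF, PTPRC and CD3E lay below the floor on every array, whereas COL1A1, COL3A1, PECAM1 and CD14 lay above it. The summed log2 signal of those 9 markers was 40.7 to 42.6 over the co-culture arrays and 42.7 to 43.6 over the probiotic supernatant arrays, against 42.4 to 43.4 with 8 h medium. It was 38.0 to 38.1 with E. coli supernatant, against 40.9 to 41.8 with 24 h medium. The sum of the 10 enterocyte markers was 97.9 to 100.3 over the co-culture arrays, highest with Ls-33 cells, and 97.2 to 99.1 over the probiotic supernatant arrays, against 97.5 to 97.9 with 8 h medium. It was 94.9 to 95.2 with E. coli supernatant, against 92.7 to 93.5 with 24 h medium. Such sums hide markers that moved in opposite directions. With Ls-33 cells the log2 difference from medium was 0.76 for KRT20 and -0.48 for VIL1. For beta-actin the 3′ minus 5′ control signal, which reads RNA integrity and labelling, was 1.08 to 1.54 in the co-cultures and 1.02 to 1.11 with probiotic supernatants, against 0.80 to 0.88 with 8 h medium. With E. coli supernatant it was 2.12 to 2.22, against 1.90 to 2.17 with 24 h medium. The part of these shifts in the results below was not tested.

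Live bacteria and supernatants gave different pictures of the family. With live cells of each strain, the AKR1C1, AKR1C2, AKR1C3 and AKR1D1 probe sets that could be tested were lower than with medium, as was 1 of the AKR7A2 probe sets, whereas AKR1B10 was higher with Ls-33 cells only among the live strains by this test. AKR1D1 with every live strain, and AKR1C1 1555856_s_at with NCFM and Ls-33 cells, lay below the floor for testing and passed it through other groups. With each probiotic supernatant AKR1B10 was higher and most other probe sets did not pass the test. With E. coli supernatant AKR1B10, AKR1C3 and several AKR1C1 and AKR1C2 probe sets were higher, and AKR7A2 was lower.

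A probe set was tested where its mean signal reached the median of all probe sets of its array set, 2.67 in the probiotic set and 2.70 in the E. coli set, which is the floor named here. This left 15 of the 17 member probe sets in each set, among 27307 tested. Calls are at a limma adjusted p under 0.05. With NCFM cells 10 of the 15 were lower and 0 higher, where 33.7% of all tested probe sets were called, 17.9% as lower. B. lactis 420 cells also gave 10 lower and 0 higher, where 31% were called, 14.4% as lower. Ls-33 cells gave 11 lower and 1 higher, where 32% were called, 15.1% as lower and 16.9% as higher. Median log2 differences of the 15 were -0.56, -0.57 and -0.47 for NCFM, 420 and Ls-33 cells, beside -0.01, 0.01 and 0.01 over all tested probe sets. Several of these probe sets read the same transcripts, so they are not independent. AKR1D1 lay below the floor with live cells of every strain and AKR1C1 1555856_s_at with NCFM and Ls-33 cells, so both passed it through other groups.

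The supernatants called fewer members. NCFM supernatant gave 1 higher and 0 lower of 15, where 7.55% of tested probe sets were called, 3.96% as higher and 3.59% as lower. B. lactis 420 supernatant gave 2 higher and 1 lower, where 10.1% were called, 4.17% as higher and 5.91% as lower. Ls-33 supernatant gave 2 higher and 2 lower, where 10.6% were called, 5.56% as higher and 5.03% as lower. The median log2 difference of the 15 was 0.06, 0.05 and 0.08 in these comparisons. E. coli supernatant gave 7 higher and 3 lower of 15, where 59.8% were called, 31% as higher and 28.8% as lower, so the share of members called lay close to the background. One of the 7, AKR1C1 1555855_at, passed the floor only through the E. coli supernatant arrays, where it is higher. All 6 probiotic comparisons use the same 2 medium arrays, and in bulk RNA fewer cells expressing a gene and less RNA per cell cannot be told apart.

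**Figure D1:**
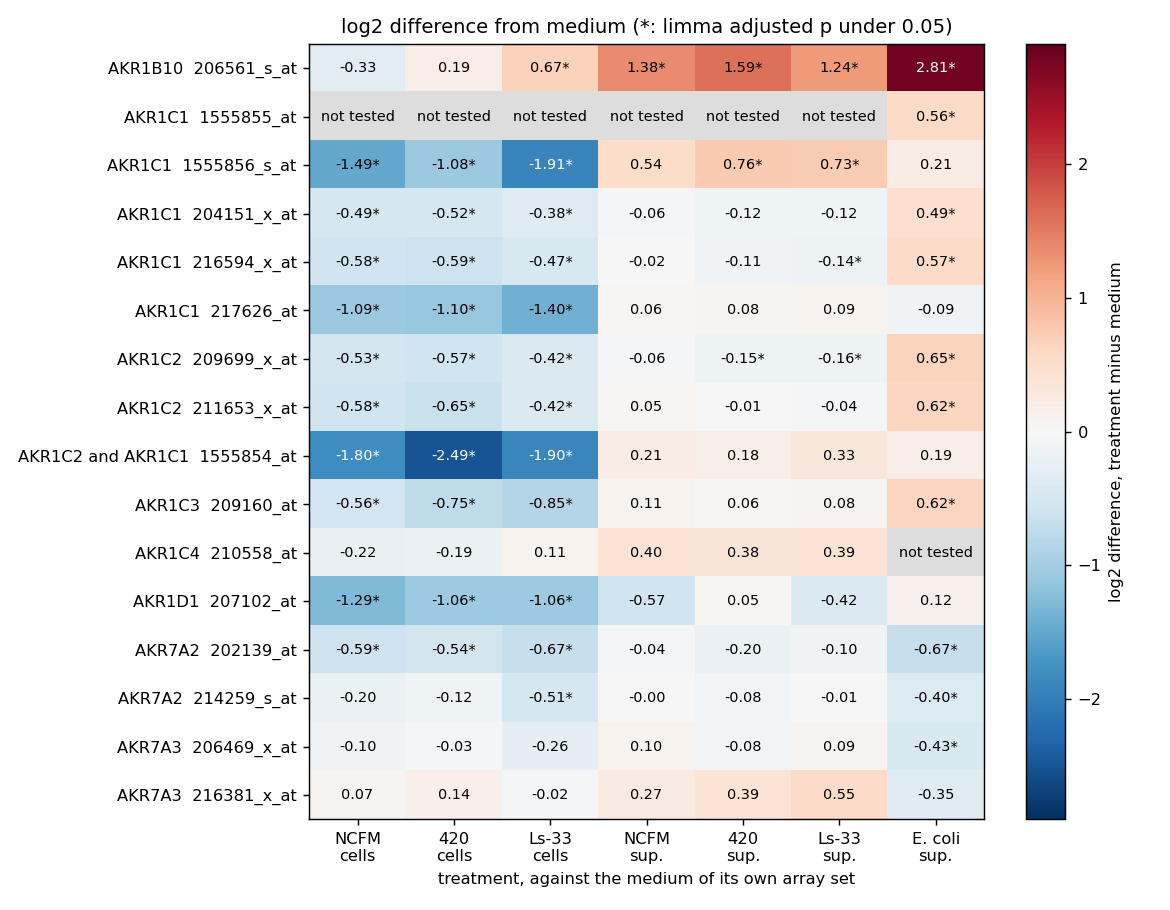
Log2 difference of each tested aldo-keto reductase probe set (rows) from the medium of its own array set, in 7 treatments (columns), with an asterisk where the limma adjusted p is under 0.05 and grey where a probe set was not tested. The co-culture columns are mostly blue (lower than medium), from -0.38 to -2.49 among called probe sets apart from AKR1B10, and the AKR1B10 row reaches 2.81 with E. coli supernatant.

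AKR1B10 reduces retinal and reactive aldehydes and is normally a gut epithelial enzyme. Its probe set, 206561_s_at, had log2 signals of 3.92 and 4.27 with NCFM cells, 4.58 and 4.66 with B. lactis 420 cells and 5.17 and 5.02 with Ls-33 cells, against 4.49 and 4.37 with 8 h medium. Signals were 5.84 and 5.78 with NCFM supernatant, 6.02 and 6.01 with 420 supernatant and 5.56 and 5.77 with Ls-33 supernatant. All supernatant arrays lay above all co-culture and medium arrays of the probiotic set, and the NCFM co-culture arrays were the lowest of it.

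In the E. coli set AKR1B10 had log2 signals of 6.24, 6.56 and 6.42 with E. coli supernatant, against 3.64, 3.46 and 3.71 with 24 h medium. The groups did not overlap, and the log2 difference of 2.81 ± 0.16 (SE, n = 3 each), a 7.0-fold difference, was the widest of any member (adjusted p = 1.65e-08). Signals with 24 h medium lay below those with 8 h medium, but time, RNA input and array set cannot be told apart between the media.

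Against 8 h medium the AKR1B10 log2 difference was 1.38 ± 0.17 with NCFM supernatant (adjusted p = 8.81e-05), 1.59 ± 0.17 with 420 supernatant (adjusted p = 2.22e-05) and 1.24 ± 0.17 with Ls-33 supernatant (adjusted p = 0.000177), or 2.61-, 3.01- and 2.36-fold (SE, n = 2 each). The strains' supernatants did not pass the F-test for a difference between them (range of the means 0.35, adjusted p = 0.789). No member passed that test, which called 7 of 27307 probe sets (0.0256%), whereas 2 members and 2077 probe sets had an unadjusted p under 0.05.

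Among live strains the AKR1B10 log2 difference from medium was -0.33 ± 0.17 with NCFM cells (adjusted p = 0.153), 0.19 ± 0.17 with 420 cells (adjusted p = 0.438) and 0.67 ± 0.17 with Ls-33 cells (adjusted p = 0.0063). The Ls-33 call was lost without Ls-33 co-culture replicate 1 (0.59, adjusted p = 0.0592) and without 8 h medium replicate 2 (0.60, adjusted p = 0.0507). The F-test between strains passed, with a range of 1.00 between the co-culture means (adjusted p = 0.00238). Means over the 3 strains differed by 1.23 ± 0.10 between supernatants and co-cultures (5.83 and 4.60, adjusted p = 9.85e-09), where format and time cannot be told apart. In that contrast 14 of the 15 members were higher with supernatants and 0 lower, where 50.5% of tested probe sets were called, 23.4% as higher. Among the 14 were AKR1C4 (means 3.06 with supernatants and 2.57 with co-cultures), AKR1D1 (3.21 and 2.39) and AKR1C1 1555856_s_at (4.56 and 2.38). Their co-culture means lay below the floor, so the size of these differences is uncertain. AKR1C4 passed the floor through the supernatant arrays, where it is higher.

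In order of mean AKR1B10 log2 signal within the probiotic set, NCFM co-culture was lowest (4.10), followed by 8 h medium (4.43), 420 co-culture (4.62), Ls-33 co-culture (5.09), Ls-33 supernatant (5.67), NCFM supernatant (5.81) and 420 supernatant (6.02). Of these neighbours, NCFM cells and medium, and medium and 420 cells, did not differ by the test. The 3 supernatants did not differ by the F-test. The other neighbours were not tested as pairs.

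**Figure D2:**
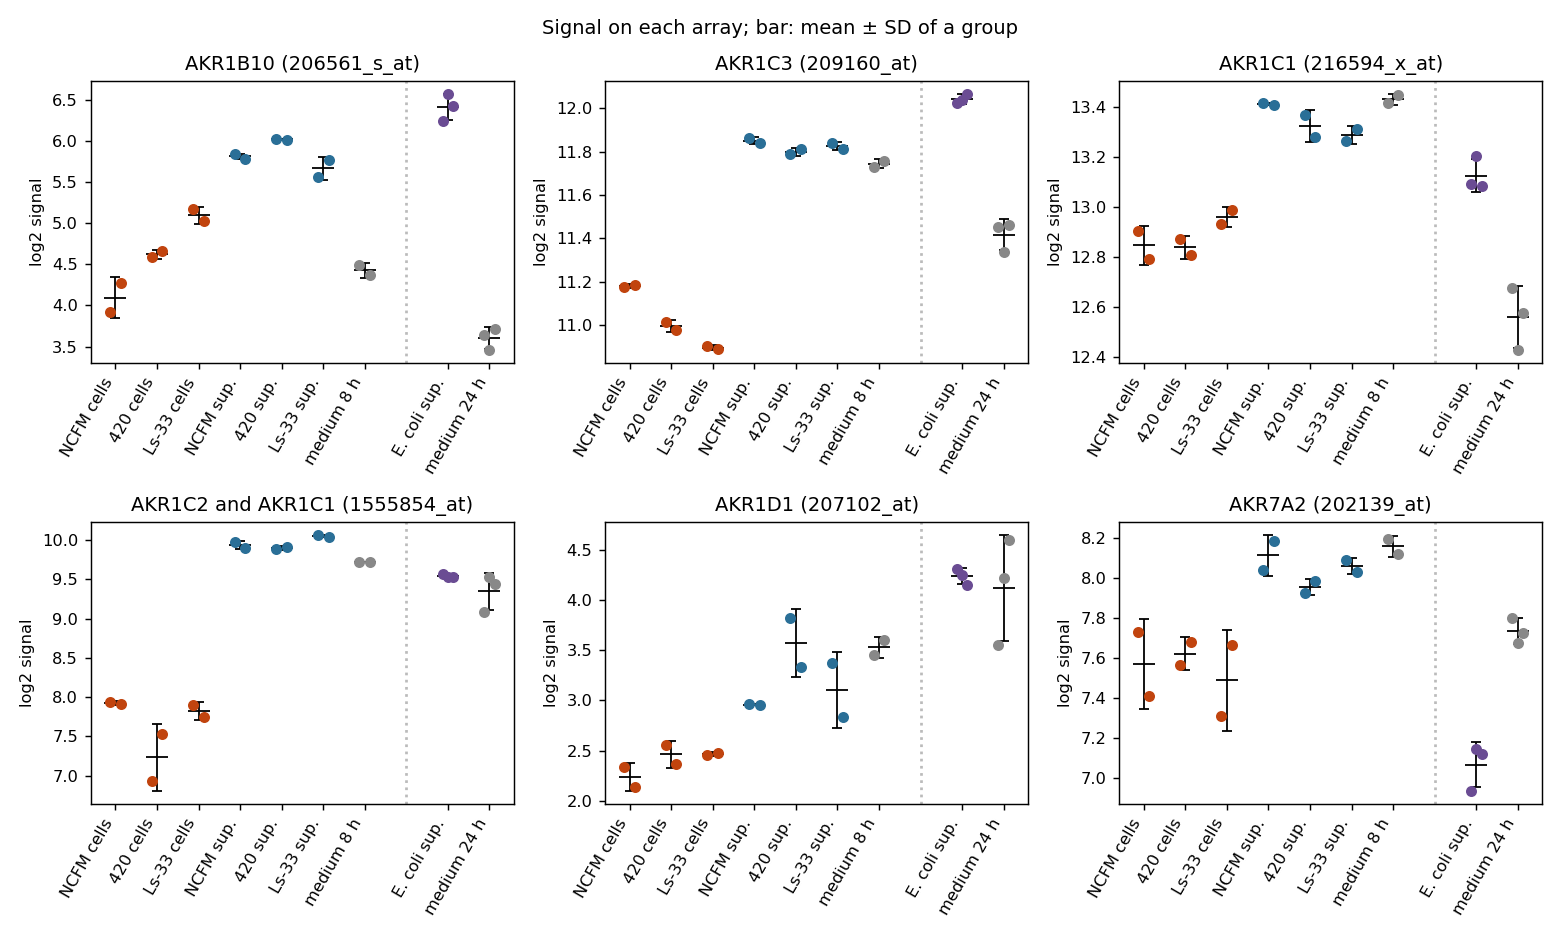
Log2 signal on each array (points) for 6 aldo-keto reductase probe sets by treatment, with group means and SD (bars) and a dotted line between the probiotic and E. coli array sets; each vertical axis has its own range and starts above 0. AKR1B10 runs from 3.92 with NCFM cells to 6.02 with B. lactis 420 supernatant in the probiotic set, while AKR1C3 and the AKR1C1 and AKR1C2 probe sets lie lowest in the co-cultures.

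AKR1C1 inactivates progesterone, AKR1C2 inactivates dihydrotestosterone, and both also reduce bulky ketones and aldehydes. Their transcripts are close to identical, so probe sets named for one can read the other, and those with the suffix _x_at (204151_x_at and 216594_x_at for AKR1C1, 209699_x_at and 211653_x_at for AKR1C2) are marked by the manufacturer as open to cross-hybridisation. The 2 genes are therefore described together, and calls are given by probe set, not by gene.

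The similarity extends upstream of the genes. The 120 bases before the RefSeq start (assembly GRCh38.p14) are shown 5′ to 3′ because probe sets of AKR1C1, AKR1C2 and AKR1C3 were lower together in the co-cultures, with AKR1C4 beside them and the CCAAT box written as ATTGG in capitals. The windows are chr10:4963295-4963414 on the plus strand for AKR1C1, chr10:5003858-5003977 on the minus strand for AKR1C2, chr10:5048661-5048780 on the plus strand for AKR1C3 and chr10:5196717-5196836 on the plus strand for AKR1C4. AKR1C3 has 2 RefSeq starts, and only the upstream one is shown. The window of the other is chr10:5094294-5094413, and the 250 bases before the 2 starts were identical at 69.6% of aligned positions.
AKR1C1: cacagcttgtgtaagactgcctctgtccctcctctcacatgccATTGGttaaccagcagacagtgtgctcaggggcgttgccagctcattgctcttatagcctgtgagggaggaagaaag
AKR1C2: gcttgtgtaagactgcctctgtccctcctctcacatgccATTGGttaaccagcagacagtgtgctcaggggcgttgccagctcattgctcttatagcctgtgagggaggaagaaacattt
AKR1C3: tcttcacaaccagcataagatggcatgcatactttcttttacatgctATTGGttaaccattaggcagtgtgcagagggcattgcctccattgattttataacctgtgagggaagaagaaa
AKR1C4: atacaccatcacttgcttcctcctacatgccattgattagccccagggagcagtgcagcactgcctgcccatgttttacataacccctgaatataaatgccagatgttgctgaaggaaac
Over the 250 bases upstream, AKR1C1 and AKR1C2 were identical at 245 of 246 aligned positions (99.6%), AKR1C1 and AKR1C3 at 74.0% and AKR1C1 and AKR1C4 at 63.6%. The letters ATTGG, searched on both strands, lie in the windows of AKR1B1, AKR1C1, AKR1C2 and AKR1C3 among the 9 genes of the family with a window, and in 20.4% of the 35116 promoter windows of 120 bases. They do not lie in the window of AKR1C4, which says only that these letters are absent there. The core of the antioxidant response element, TGACNNNGC, lies in 10.9% of all 250-base windows and, among those 9 genes, only in AKR7A2. AKR1B10 had no window and was not searched. For the other genes this says only that these letters are absent from the 250 bases, not that the element is absent elsewhere. No member window held both motifs.

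Signals of AKR1C1 probe set 216594_x_at were 12.90 and 12.79 with NCFM cells, 12.87 and 12.81 with 420 cells and 12.93 and 12.99 with Ls-33 cells, against 13.42 and 13.45 with 8 h medium. Every co-culture array lay below every medium array. Its log2 difference was -0.58 ± 0.04 with NCFM cells, -0.59 ± 0.04 with 420 cells and -0.47 ± 0.04 with Ls-33 cells (SE, n = 2 each, adjusted p from 6.5e-09 to 9.98e-08). All 4 _x_at probe sets of AKR1C1 and AKR1C2 were lower with live cells of each strain, by log2 differences from -0.65 for AKR1C2 211653_x_at with 420 cells to -0.38 for AKR1C1 204151_x_at with Ls-33 cells (adjusted p from 3.85e-09 to 1.16e-06).

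Of the other AKR1C1 and AKR1C2 probe sets, the 3 that were tested fell further in the co-cultures. The shared probe set 1555854_at had log2 signals of 7.94 and 7.91 with NCFM cells, 6.93 and 7.53 with 420 cells and 7.90 and 7.75 with Ls-33 cells, against 9.72 and 9.73 with 8 h medium. The co-culture and medium arrays were thus far apart, and its log2 differences were -1.80, -2.49 and -1.90 (each ± 0.13 SE), or 3.48-, 5.63- and 3.73-fold lower, with an adjusted p of at most 7.23e-09.

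AKR1C1 probe set 217626_at was lower by log2 differences of -1.09, -1.10 and -1.40 with NCFM, 420 and Ls-33 cells (adjusted p of at most 8.7e-07). AKR1C1 probe set 1555856_s_at had signals of 2.34 and 2.44 with NCFM cells, 2.87 and 2.73 with 420 cells and 1.92 and 2.02 with Ls-33 cells, against 3.72 and 4.05 with 8 h medium. Its log2 differences of -1.49, -1.08 and -1.91 passed the test (adjusted p of at most 0.000748), but 4 of these 6 co-culture arrays lie below the floor, where the size of a fold change is uncertain. The difference in size between the _x_at and the other probe sets was not tested.

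The remaining 2 probe sets of this pair were near or below the floor. AKR1C1 1555855_at, not tested in the probiotic set, read 1.22 to 1.86 over the 6 co-culture arrays and 2.84 to 3.01 over the 6 supernatant arrays, against 3.12 and 2.62 with 8 h medium. AKR1C2 244266_at stayed between 1.77 and 2.29 on all 20 arrays and was not tested in either set.

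Probiotic supernatants gave small or unstable differences for AKR1C1 and AKR1C2. With NCFM supernatant none of their 7 tested probe sets was called, at log2 differences from -0.06 to 0.54. AKR1C1 1555856_s_at had signals of 4.77 and 4.51 with 420 supernatant and 4.78 and 4.44 with Ls-33 supernatant, against 3.72 and 4.05 with medium. It was called higher in both, at 0.76 ± 0.21 (adjusted p = 0.028) and 0.73 ± 0.21 (adjusted p = 0.0333). AKR1C2 209699_x_at was called lower in both, at -0.15 and -0.16 (adjusted p = 0.0424 and 0.0344), and AKR1C1 216594_x_at with Ls-33 supernatant, at -0.14 (adjusted p = 0.0333). These 5 calls pointed in opposite directions for the same pair of genes, and each was lost whenever any 1 of the 4 arrays compared was left out (adjusted p from 0.0509 to 0.252).

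In the E. coli set the 4 _x_at probe sets were all higher. AKR1C2 211653_x_at had log2 signals of 12.64, 12.76 and 12.68 with E. coli supernatant, against 12.17, 12.02 and 12.05 with 24 h medium, with no overlap. Its log2 difference was 0.62 ± 0.05 (SE, n = 3 each), or 1.53-fold (adjusted p = 4.52e-07), and the others ranged from 0.49 to 0.65 (adjusted p of at most 0.000337). The shared probe set 1555854_at read 9.56, 9.53 and 9.53 with E. coli supernatant, against 9.08, 9.53 and 9.44 with 24 h medium. These arrays overlapped, and the log2 difference of 0.19 ± 0.10 did not pass the test (adjusted p = 0.133). AKR1C1 217626_at and 1555856_s_at also did not pass, at -0.09 (adjusted p = 0.499) and 0.21 (adjusted p = 0.549).

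Single arrays decided some of these outcomes. Without 24 h medium replicate 2 the difference of 1555854_at was 0.28 (adjusted p = 0.0227), and without 24 h medium replicate 1 that of 1555856_s_at was 0.59 (adjusted p = 0.0259). AKR1C1 1555855_at was called higher, at 0.56 ± 0.18 (3.00 and 2.44, adjusted p = 0.0166), a call that was lost without 24 h medium replicate 3 (0.43, adjusted p = 0.0885). Its medium arrays lay below the floor, and its mean passed the floor through the E. coli supernatant arrays.

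**Figure D3:**
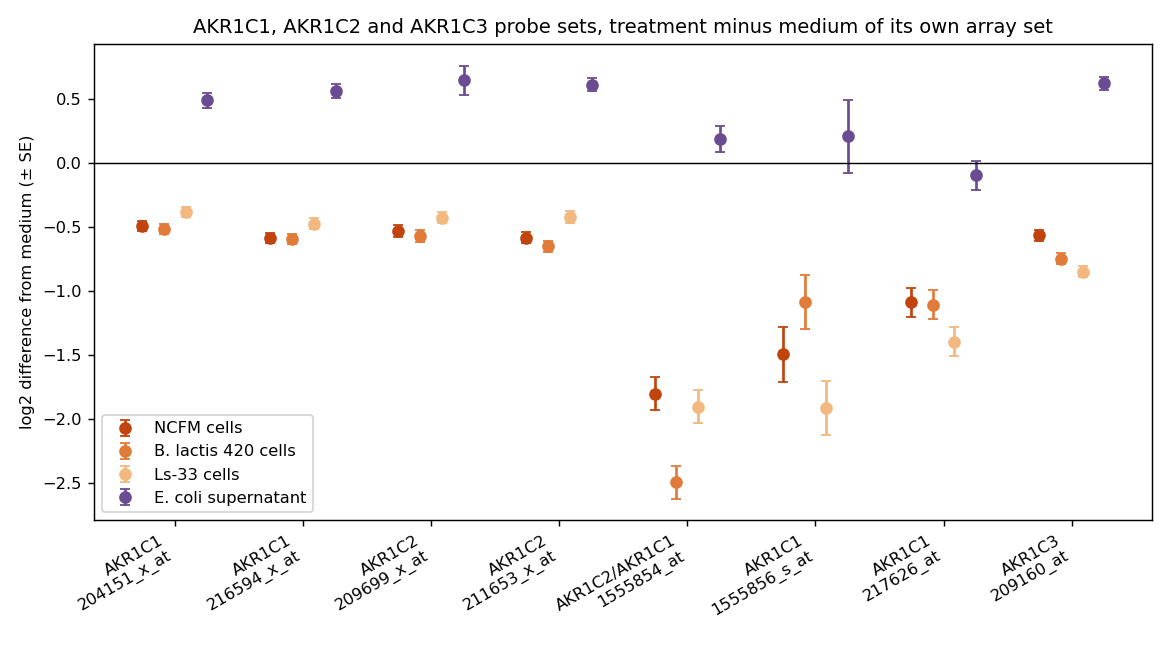
Log2 difference from the medium of the same array set (points, with SE as bars) for 8 AKR1C1, AKR1C2 and AKR1C3 probe sets, with live cells of each strain and with E. coli supernatant. All co-culture points lie below 0, from -0.38 to -2.49, and the E. coli points of AKR1C3 and of the 4 _x_at probe sets lie between 0.49 and 0.65, whereas the other 3 lie between -0.09 and 0.21.

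The strains' co-cultures differed from each other by the F-test in 4 of the 7 AKR1C1 and AKR1C2 probe sets, where 13.1% of all tested probe sets passed. The log2 range of the co-culture means was 0.69 for 1555854_at (adjusted p = 0.00204), lowest with 420 cells, and 0.83 for 1555856_s_at (adjusted p = 0.0365), lowest with Ls-33 cells. It was 0.14 for 204151_x_at (adjusted p = 0.0429) and 0.23 for 211653_x_at (adjusted p = 0.0042), both highest with Ls-33 cells. The calls of 1555856_s_at and 204151_x_at were lost without a trend in the variance (adjusted p = 0.0727 and 0.452) and without any 1 of the 420 or Ls-33 co-culture arrays (adjusted p from 0.0763 to 0.169 and from 0.0612 to 0.264). That of 204151_x_at was also lost with the replicate number as a block (adjusted p = 0.0538). The probe sets of this pair thus gave no common order of the strains.

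AKR1C3 makes testosterone from androstenedione and also acts as a prostaglandin F synthase. Its probe set, 209160_at, read 11.18 and 11.19 with NCFM cells, 11.02 and 10.98 with 420 cells and 10.91 and 10.89 with Ls-33 cells, against 11.73 and 11.76 with 8 h medium. The 3 strains occupied separate bands, all below medium. Log2 differences were -0.56, -0.75 and -0.85 (each ± 0.04 SE, n = 2 each), or 1.48-, 1.68- and 1.80-fold lower (adjusted p from 6.51e-11 to 1.87e-08), and the strains differed by the F-test (range 0.28, adjusted p = 0.000658).

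With probiotic supernatants AKR1C3 read 11.79 to 11.86 over the 6 arrays, just above the medium arrays. The log2 differences of 0.11, 0.06 and 0.08 did not pass the test (adjusted p from 0.15 to 0.458). In the E. coli set AKR1C3 read 12.02, 12.04 and 12.07 with supernatant, against 11.45, 11.34 and 11.46 with 24 h medium. There was no overlap, and the log2 difference was 0.62 ± 0.05, or 1.54-fold (adjusted p = 3.99e-07).

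AKR1C4 is a liver enzyme that reduces steroid and bile acid ketones. Its probe set, 210558_at, ranged from 2.29 to 3.42 over the probiotic set, around the floor, and passed in 0 of the 6 treatment comparisons (log2 differences from -0.22 to 0.40). It was called higher with supernatants than with co-cultures (0.49, adjusted p = 0.00653), but its co-culture mean of 2.57 lay below the floor. In the E. coli set it was not tested, and it read 2.89, 2.73 and 2.93 with E. coli supernatant, against 2.55, 2.64 and 2.18 with 24 h medium. These arrays did not overlap but lay near or below the floor.

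AKR1D1 reduces a ring double bond of steroid hormones and bile acid precursors, a step on the path to bile acids in liver. Probe set 207102_at read 2.34 and 2.14 with NCFM cells, 2.56 and 2.37 with 420 cells and 2.45 and 2.48 with Ls-33 cells, against 3.46 and 3.60 with 8 h medium. All co-culture arrays lay below medium and below the floor of 2.67. Log2 differences of -1.29, -1.06 and -1.06 (each ± 0.19 SE) passed the test (adjusted p of at most 0.000348), with an uncertain size because the lower group is at the floor.

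With NCFM, 420 and Ls-33 supernatants the AKR1D1 differences were -0.57 (adjusted p = 0.0789), 0.05 and -0.42. In the E. coli set AKR1D1 read 4.31, 4.25 and 4.15 with supernatant, against 3.55, 4.21 and 4.60 with 24 h medium, and these arrays overlapped (0.12, adjusted p = 0.68).

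AKR7A2 reduces succinic semialdehyde and the dialdehyde of aflatoxin. Probe set 202139_at read 7.73 and 7.41 with NCFM cells, 7.56 and 7.68 with 420 cells and 7.31 and 7.67 with Ls-33 cells, against 8.20 and 8.12 with 8 h medium. Every co-culture array was lower than medium, with log2 differences of -0.59, -0.54 and -0.67 (each ± 0.13 SE, adjusted p of at most 0.00336). With E. coli supernatant it read 6.94, 7.14 and 7.12, against 7.80, 7.68 and 7.72 with 24 h medium. The groups did not overlap, and the log2 difference was -0.67 ± 0.11 (adjusted p = 0.000184).

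The other AKR7A2 probe set, 214259_s_at, was not called with NCFM cells (-0.20, adjusted p = 0.144) or 420 cells (-0.12, adjusted p = 0.427). It was lower with Ls-33 cells, at 8.29 and 8.33 against 8.71 and 8.93 with medium (-0.51, adjusted p = 0.000851). It was also lower with E. coli supernatant (-0.40, adjusted p = 0.0058). The 2 probe sets thus disagreed on the call with NCFM and 420 cells while pointing the same way. Neither was called with a probiotic supernatant, at log2 differences from -0.20 to 0.00.

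AKR7A3 reduces aflatoxin dialdehyde as well. Its probe sets, 206469_x_at and 216381_x_at, were not called with any live strain, at log2 differences from -0.26 to 0.14. With Ls-33 supernatant 216381_x_at read 4.85 and 4.83, against 4.20 and 4.38 with 8 h medium, a log2 difference of 0.55 that missed the threshold (adjusted p = 0.0518) and passed it without a trend in the variance (adjusted p = 0.0248). For 206469_x_at the signals were 3.97, 3.72 and 4.05 with E. coli supernatant, against 4.27, 4.34 and 4.44 with 24 h medium. These arrays did not overlap, and the log2 difference of -0.43 ± 0.16 passed (adjusted p = 0.0289), but not without E. coli replicate 1 (-0.46, adjusted p = 0.0559), E. coli replicate 2 (-0.34, adjusted p = 0.125) or medium replicate 3 (-0.39, adjusted p = 0.0891). For 216381_x_at the difference was -0.35 (adjusted p = 0.153), and -0.51 (adjusted p = 0.0375) without medium replicate 1.

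Of 7 further genes of the superfamily, AKR1E2, AKR1B15, AKR1C8, AKR7L, KCNAB1, KCNAB2 and KCNAB3, 4 had a named probe set and 3 were tested. AKR1E2 was lower with Ls-33 cells, at 4.22 and 4.04 against 4.55 and 4.73 with medium (-0.51, adjusted p = 0.0379). KCNAB2, a potassium channel subunit of this fold, was lower with E. coli supernatant, at 3.09, 3.13 and 3.15 against 3.56, 3.39 and 3.72 with 24 h medium (-0.43, adjusted p = 0.0179). No other call was made in the 7 treatment comparisons for these genes.

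The AKR differences were set beside lists of enzymes and pathways that share their substrates or control, each gene by 1 probe set, usually its brightest, whereas the background shares count all tested probe sets. Of 25 NRF2 pathway genes 23 were tested. With E. coli supernatant 17 were higher and 4 lower, where 31% of all tested probe sets were called higher and 28.8% lower (median log2 difference 0.79, beside -0.01 over all tested probe sets). They included NFE2L2, which encodes NRF2 itself, at 12.30 ± 0.06 against 10.66 ± 0.09 with medium (1.65, adjusted p = 4.1e-10). TXNRD1, thioredoxin reductase, was higher by 1.86 (adjusted p = 4.98e-10) and SLC7A11, the cystine transporter, by 2.15 (adjusted p = 1.65e-09).

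With live cells genes of the NRF2 list were called in both directions. NCFM cells gave 5 higher and 9 lower of 23, where 33.7% of all tested probe sets were called. With 420 cells 6 were higher and 3 lower, where 31% were called, a share near the background, and with Ls-33 cells 8 and 4, where 32% were called. The list medians were -0.06, 0.01 and 0.03, beside -0.01, 0.01 and 0.01 over all tested probe sets. The 2 subunits of glutamate-cysteine ligase moved in opposite directions with NCFM cells: GCLM was higher by 1.13 (adjusted p = 3.53e-07) and GCLC differed by -0.75 (adjusted p = 5.56e-08). With 420 cells GCLM was also higher (1.00) and GCLC also lower (-0.72, adjusted p = 1.09e-07). GCLM was higher with Ls-33 cells too (1.54). With NCFM, 420 and Ls-33 supernatants 5, 7 and 8 of the list were higher and 3, 4 and 3 lower, where 7.55%, 10.1% and 10.6% of all tested probe sets were called. SLC7A11 was higher by 1.19, 1.14 and 1.22 there (adjusted p of at most 0.000377) and GCLM by 0.89, 0.94 and 0.98.

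Of 20 further steroid enzymes 15 were tested. With NCFM and 420 cells 8 were lower and 1 higher, with Ls-33 cells 7 and 2, and with E. coli supernatant 10 and 1. Over all tested probe sets 17.9%, 14.4%, 15.1% and 28.8% were called lower in these comparisons. The list's median log2 differences were -0.36, -0.21, -0.40 and -0.57, beside -0.01, 0.01, 0.01 and -0.01 over all tested probe sets. HSD17B2, which inactivates estradiol and testosterone, averaged 7.24 ± 0.26 with NCFM cells, 7.50 ± 0.18 with 420 cells and 7.31 ± 0.22 with Ls-33 cells, against 9.62 ± 0.02 with 8 h medium (SD, n = 2 each). It averaged 5.11 ± 0.38 with E. coli supernatant, against 8.81 ± 0.17 with 24 h medium (SD, n = 3 each), a log2 difference of -3.70 (adjusted p = 3.95e-09). CYP11A1, which cleaves the cholesterol side chain, was lower by log2 differences of -1.87, -2.02 and -2.33 with NCFM, 420 and Ls-33 cells (adjusted p of at most 1.8e-08). With supernatants of NCFM, 420 and Ls-33, 4, 4 and 3 of the 15 were lower and 1 each higher, where 3.59%, 5.91% and 5.03% of all tested probe sets were called lower.

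Of 14 genes of bile acid synthesis, the pathway of AKR1C4 and AKR1D1, 5 were tested in the probiotic set and 6 in the E. coli set. With live cells of each strain 3 of 5 were lower and 0 higher, where 17.9%, 14.4% and 15.1% of all tested probe sets were called lower with NCFM, 420 and Ls-33 cells. ACOX2, the side-chain oxidase of bile acid precursors, gave log2 differences of -0.90, -0.72 and -0.93 with NCFM, 420 and Ls-33 cells, and CYP27A1, a sterol hydroxylase, -1.06, -0.86 and -0.91. With each probiotic supernatant 1 of 5, ACOT8, was lower, where 3.59%, 5.91% and 5.03% of all were called lower with NCFM, 420 and Ls-33 supernatants. With E. coli supernatant 4 of 6 were lower and 0 higher, where 28.8% of all were called lower. ACOX2 was among them (-1.34, adjusted p = 1.15e-06).

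Of 34 other carbonyl reductases, retinol dehydrogenases and aldehyde dehydrogenases, 26 were tested in the probiotic set and 27 in the E. coli set. NCFM, 420 and Ls-33 cells gave 4, 3 and 2 higher, with 6 lower each. These are 10, 9 and 8 of 26 called, near the shares of 33.7%, 31% and 32% over all tested probe sets. DHRS2, a dicarbonyl reductase, was higher by 2.64, 2.56 and 2.02 with live cells of these strains (adjusted p of at most 4.6e-07), opposite in sign to the tested probe sets of AKR1C1, AKR1C2 and AKR1C3. ALDH6A1, the methylmalonate semialdehyde dehydrogenase, was lower by log2 differences of -0.76 with NCFM cells (adjusted p = 4.61e-05) and -1.0 with 420 cells (adjusted p = 2.24e-06). NCFM, 420 and Ls-33 supernatants gave 2, 1 and 2 higher and 2, 2 and 4 lower, where 7.55%, 10.1% and 10.6% of all were called. DHRS2 was also higher with these supernatants, by 0.86, 0.64 and 1.69 (adjusted p = 0.013, 0.0488 and 3.55e-05). E. coli supernatant gave 8 higher and 13 lower of 27, where 59.8% of all were called, with ALDH5A1, the succinic semialdehyde dehydrogenase, at -1.96 (adjusted p = 3.51e-09) and ALDH3A2, a fatty aldehyde dehydrogenase, at 0.88 (adjusted p = 3.23e-07).

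**Figure D4:**
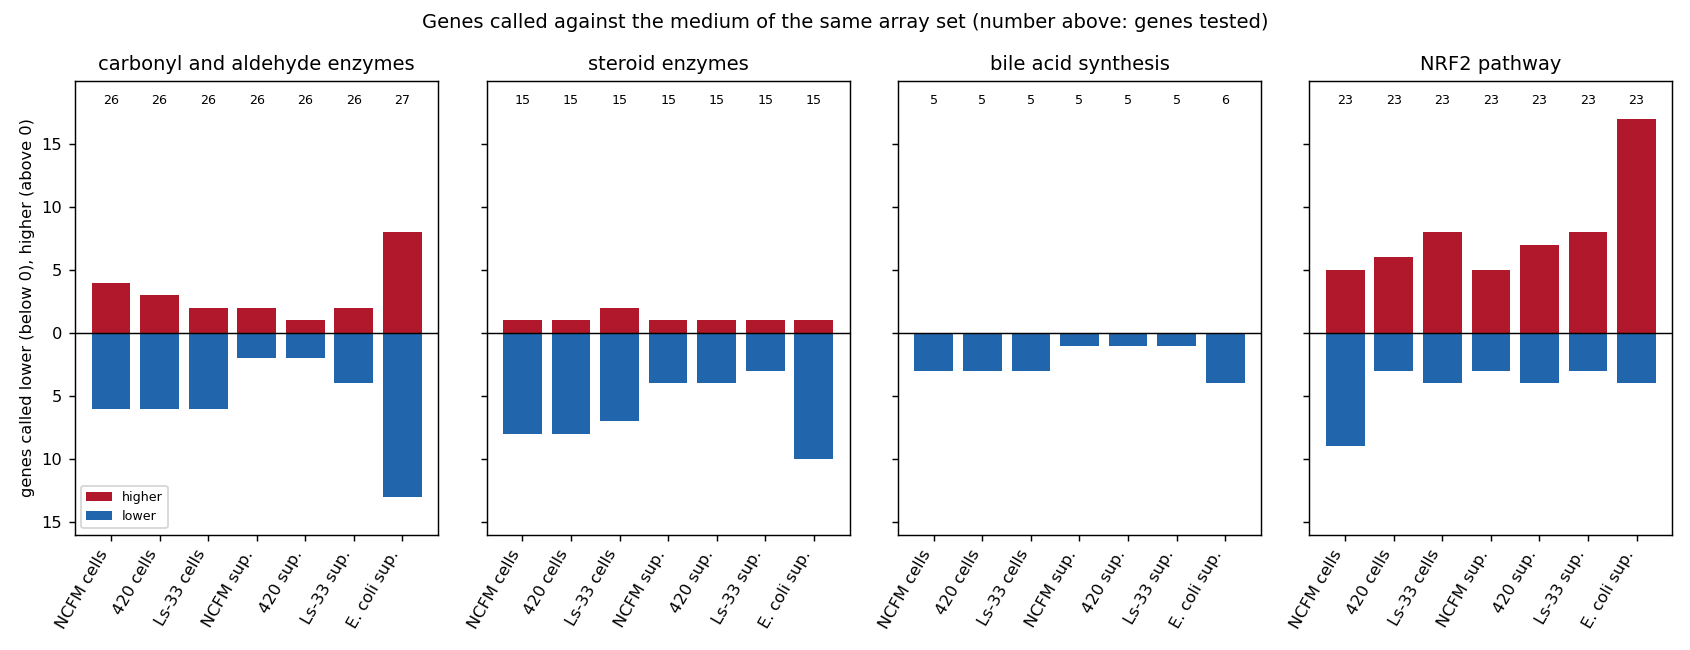
Number of genes called higher (above 0) and lower (below 0) than the medium of the same array set in 4 gene lists, for 7 treatments, with the number of genes tested printed above each column. In the NRF2 pathway 17 of 23 genes were higher with E. coli supernatant, and in the steroid list 7 or 8 of 15 were lower with live cells.

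The pattern most like that of AKR1B10 over the 20 arrays, each less the mean of its own medium, was that of GDF15 (Pearson r = 0.970), followed by IRS1 (0.969), AFF4 (0.966), MCL1 (0.964) and PBDC1 (0.963), among 21330 candidate probe sets. These correlations share arrays and 7 group means, and are given as a description. GDF15, a stress-induced hormone, differed by 0.59, 0.62 and 0.82 with NCFM, 420 and Ls-33 supernatants and by 1.82 with E. coli supernatant, and by -0.20, 0.01 and 0.23 with live NCFM, 420 and Ls-33 cells.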

How the data were processed

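RNA of differentiated Caco-2 cells was measured on 20 Affymetrix arrays, 14 in the probiotic set and 6 in the E. coli set. The authors deposited log2 signals, 1 per probe set, summarised with RMA as named in the submitters' processing notes. The RMA version and any joint normalization of the array sets are not given. The number of arrays limits the precision.

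Probe sets were named from the platform annotation, of which 41091 carried 1 symbol, 1801 several and 11721 none, besides 62 controls. Symbols were updated through Entrez identifiers. The members, lists and tests were chosen with earlier results of these data known. Groups were taken from the labels, and limma 3.58.1 in R 4.3.3 (lmFit, eBayes with a trend) was fitted within each array set, with Benjamini-Hochberg adjustment over 27307 probe sets whose mean reached the median. Strains were compared by moderated F-tests. A gene of a list was represented by its probe set with the highest mean, leaving out the suffix _x_at where it had others. Named were all member probe sets, up to 3 called genes per list and comparison with the lowest adjusted p, and the 5 genes most correlated with AKR1B10. The fits were tested on simulated data. Each result was recomputed with eBayes without a trend, without a filter, with a stricter one (the 70th percentile), with joint quantile normalization, 1 probe set per gene or the replicate number as a block, on other sets of arrays, and leaving out single arrays in turn.

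Same-numbered arrays did not deviate together (r = -0.04 to 0.04 in the probiotic set, -0.12 to 0.03 in the E. coli set), so the numbers were not used as pairs. Promoter sequences are RefSeq's (GRCh38.p14), found for 9 of 10 members, and were aligned with Biopython 1.88.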

Additional observations from a re-analysis of the deposited data

Results flagged for a closer look

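In 7 of 15 tested aldo-keto reductase probe sets the co-cultures of the 3 strains differed from each other by limma's moderated F-test, where 13.1% of all tested probe sets did. The range of the co-culture means on the log2 scale was 1.00 for AKR1B10, highest with Ls-33 cells, and 0.28 for AKR1C3, lowest with Ls-33 cells. For AKR1C1 it was 0.83 with probe set 1555856_s_at and 0.14 with 204151_x_at. For AKR1C2 it was 0.23 with 211653_x_at, and for the probe set shared by AKR1C2 and AKR1C1, 1555854_at, it was 0.69. For AKR7A2 214259_s_at it was 0.39. The fit with 1 probe set per gene held neither 1555854_at nor 211653_x_at. Among the alternative runs that held them, AKR1B10 and 1555854_at passed every one. AKR1C3 and 211653_x_at failed only without a trend in the variance (adjusted p = 0.0813 and 0.198). The other 3 probe sets also failed in at least 3 of the fits that left out an array. Groups of 2 or 3 arrays are too small for a search for outlying arrays.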

How the results depend on the processing

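Over 1731 values of single probe sets under alternatives, 1662 kept their side of the threshold and their direction, 54 lost a call, 15 gained one and 0 called values changed sign, while 32 uncalled values did. Joint quantile normalization moved the median of all tested probe sets by at most 0.03. With 1 probe set per gene, 7 member probe sets were left in the probiotic fit and 6 in the E. coli fit. AKR1C1 was then represented by 217626_at and AKR1C2 by 244266_at, which was not tested in the main fits, so no AKR1C2 probe set is among them. Members called numbered 3, 3 and 5 with NCFM, 420 and Ls-33 cells, and 1, 1 and 2 with their supernatants. They numbered 3 in the F-test between co-cultures, 7 between formats and 3 with E. coli supernatant. Over all genes 4186, 4184 and 4591 were called with NCFM, 420 and Ls-33 cells, in place of 9194, 8469 and 8747 probe sets. Their supernatants gave 1336, 1802 and 1972, in place of 2061, 2754 and 2892. Calls numbered 1629 between co-cultures, 4 between supernatants, 6619 between formats and 7605 with E. coli supernatant, in place of 3581, 7, 13800 and 16334. Without a trend 1056, 1423 and 1545 probe sets were called with NCFM, 420 and Ls-33 supernatants, with 1 and 2 members for 420 and Ls-33, 2122 with 2 members between co-cultures and 0 between supernatants. With only the co-cultures in the fit 2337 probe sets differed between strains, 4 of them members. The cause was not tested apart from the smaller number of probe sets.

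Leaving out each array in turn gave 6775 to 8170, 6068 to 6205 and 6111 to 6597 calls with NCFM, 420 and Ls-33 cells (members 10, 10 and 11 to 12). Supernatants of NCFM, 420 and Ls-33 gave 667 to 1150, 1044 to 1535 and 982 to 1737 (members 1, 1 to 2, and 1). Co-cultures differed in 1982 to 3452 (members 4 to 9), supernatants in 1 to 6 (members 0), and formats in 12714 to 13427 (members 14). E. coli supernatant gave 14296 to 16536 (members 8 to 12). A lone remaining array is assumed to vary like the other groups. With the replicate number as a block, members called numbered 10, 10, 12, 1, 3, 4 and 10 in the 7 treatment comparisons, 6 and 0 between strains and 14 between formats; AKR1C1 204151_x_at lost its difference between co-cultures (adjusted p = 0.0538). Probe sets at the floor, AKR1D1, AKR1C4 and AKR1C1 1555855_at and 1555856_s_at, have signals too close to background for a reliable fold.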
